A study of Homo sapiens with 4 samples.

Results

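Small nucleolar RNA host genes were measured by RNA sequencing in the human multiple myeloma line RPMI 8226, transfected with an antisense oligonucleotide (ASO) against CELF2. The members were chosen by name from the table of gene counts. They are every gene whose symbol is SNHG followed by a number, together with GAS5, ZFAS1 and EPB41L4A-AS1, which makes 31 genes of 78932 in the table. Of these, 28 passed the filter on low counts and were tested. One group was given a locked nucleic acid (LNA) ASO to CELF2 at 5 nM and the other a control LNA ASO whose dose the labels do not give, both for 72 hours and with 2 libraries each. CELF2 encodes an RNA-binding protein that acts on splicing and mRNA stability. All libraries come from 1 cell line. No label names separate cultures, so the p-values reflect library-to-library spread, which may be technical. The number in each label may mark an oligonucleotide or a replicate.

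A snoRNA host gene makes a transcript whose introns hold small nucleolar RNAs (snoRNAs). After splicing, the snoRNA is trimmed out of the intron and enters a protein complex that modifies ribosomal RNA. Box C/D snoRNAs guide 2′-O-methylation, box H/ACA snoRNAs guide pseudouridylation, and small Cajal body RNAs (scaRNAs) act in the same way on spliceosomal RNAs. The spliced host transcript itself often encodes no protein. Several such transcripts begin with a terminal oligopyrimidine (TOP) tract like ribosomal protein mRNAs and are removed by nonsense-mediated decay when ribosomes read their short open frames. GAS5 takes its name from growth arrest, in which it accumulates.

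A TOP tract lies at the very start of a transcript, so the 30 bases around the annotated start (15 before and 15 after) are shown for 6 hosts that rose and 5 that fell. Sequences are from RefSeq on GRCh38.p14, 5′ to 3′ on the strand of the gene. Capitals mark a C followed by at least 4 C or T, beginning within 10 bases of the start, and where several C fit the run is marked from the C nearest the start. A sequence with no capitals has no such tract. The hosts that rose were SNHG32 (chr6:31834901-31834930, plus strand), SNHG5 (chr6:85678719-85678748, minus), ZFAS1 (chr20:49278627-49278656, plus), SNHG8 (chr4:118278747-118278776, plus), GAS5 (chr1:173869031-173869060, minus) and EPB41L4A-AS1 (chr5:112160511-112160540, plus).
SNHG32: ctcgccattttagttCTTTTTgcgaagtgg
SNHG5: gctgcgcacttcggtCTTTTacgtcggcct
ZFAS1: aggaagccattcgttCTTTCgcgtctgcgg
SNHG8: aaggcctcggcCTTTCacattcgggaagcg
GAS5: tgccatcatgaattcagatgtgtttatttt
EPB41L4A-AS1: tggactcatgaattctgtcgggtcccaaaa

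The hosts that fell were SNHG12 (chr1:28581859-28581888, minus), SNHG4 (chr5:139274086-139274115, plus), SNHG16 (chr17:76557749-76557778, plus), SNHG3 (chr1:28505928-28505957, plus) and SNHG10 (chr14:95534858-95534887, minus).
SNHG12: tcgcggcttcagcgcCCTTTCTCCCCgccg
SNHG4: ctcggctcccggctgCCCTTTCCCCTCCgg
SNHG16: cgcaggggcggtctcgcgttCTTTTCgagg
SNHG3: cctcagtgagtttctgattctctaactgcg
SNHG10: tgggccttatgccggagcctcatcctactg

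Total gene counts were 26061900 and 23599190 in the CELF2 ASO libraries and 29161298 and 24493148 in the control libraries. Levels are given as CPM, read counts scaled to a common library size after adjustment by the trimmed mean of M-values (TMM). CELF2 averaged 52.7 ± 5.53 CPM with the CELF2 ASO and 128 ± 0.0805 CPM with the control (SD, n = 2 each). Plasma cell markers summed to 3911 to 4468 CPM with the CELF2 ASO and 3523 to 3774 CPM with the control, and all 10 were above 1 CPM in at least 1 library. T and NK cell markers summed to at most 2.02 CPM, myeloid markers to at most 5.33 CPM with 3 of 8 at 0, and stromal and epithelial markers to 36.6 and 42.4 CPM with the CELF2 ASO and 67.2 and 69.3 CPM with the control. Spread was wider within the CELF2 ASO pair. A chi-square of counts per degree of freedom was 22.5 for the CELF2 ASO pair and 3.73 for the control pair. The labels name poly(A) selection in one place and ribosomal RNA removal in another, so the level of RNAs without a poly(A) tail has no fixed meaning here.

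The host genes moved in both directions. By edgeR's quasi-likelihood test with an adjusted p threshold of 0.05, 12 of the 28 tested hosts rose with the CELF2 ASO, 10 fell and 6 did not pass. Over all 19511 genes tested, 55.5% were called, 27.5% higher and 27.9% lower, against 78.6% of the hosts. Among long noncoding RNA genes outside the hosts, 861 of 2490 rose and 208 fell (42.9% called). The median log2 fold change of the hosts was 0.21, beside 0.04 for all genes tested and 0.47 for those long noncoding RNA genes. At 2-fold or more, 10 hosts were called, beside 25.6% of all genes tested. For 26 of the 28 hosts the CPM ranges of the 2 groups were separate, against 79.6% of all genes tested. Fewer transcripts per cell and fewer cells that carry them cannot be told apart in bulk RNA.

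The summed level of the 12 hosts that rose was 617 and 754 CPM in the CELF2 ASO libraries and 318 and 313 CPM in the control libraries. The 10 that fell summed to 238 and 212 CPM with the CELF2 ASO and to 401 and 387 CPM with the control. All 31 members together took 0.0953% and 0.101% of gene counts in the CELF2 ASO libraries, and 0.0724% and 0.0705% in the control libraries.

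**Figure D1:**
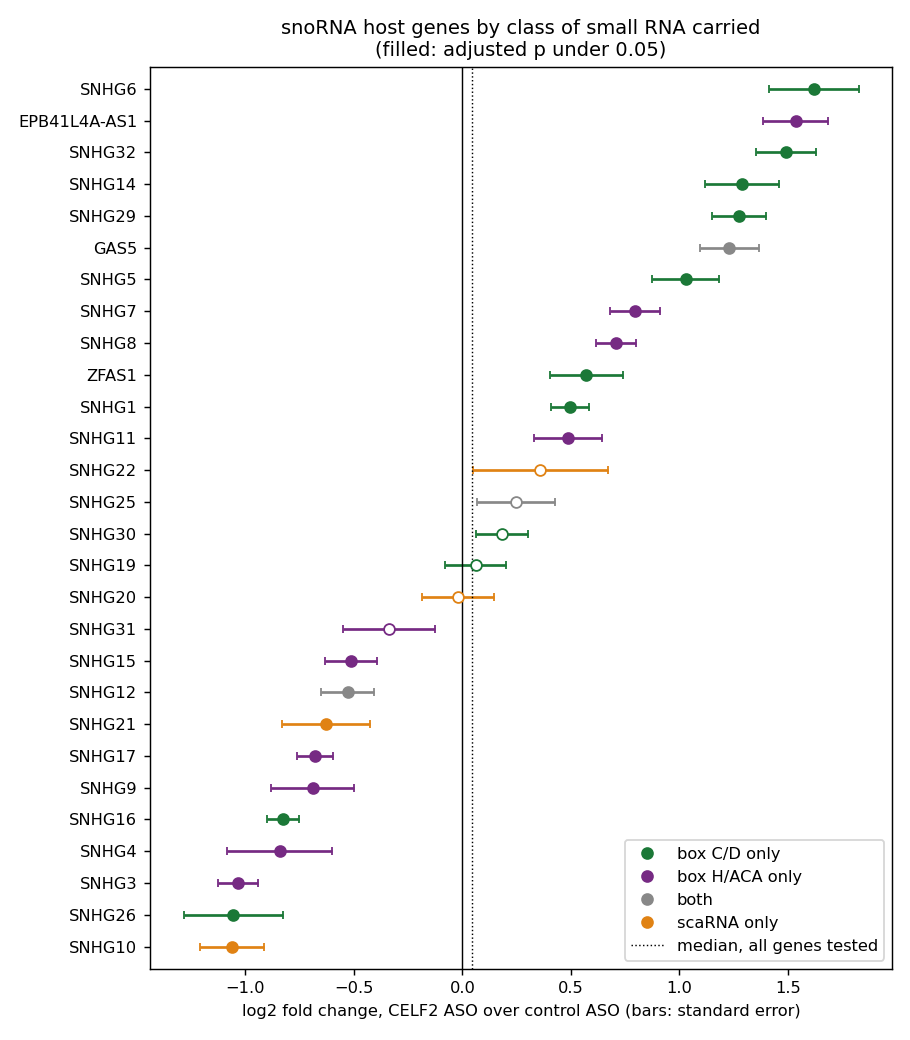
Log2 fold change of each tested host gene (CELF2 ASO over control ASO) with its standard error, ordered by size and coloured by the class of small RNA that the gene holds; filled points passed an adjusted p of 0.05. The hosts run from SNHG6 at 1.62 to SNHG10 at -1.06, and the dotted line at 0.04 is the median of all genes tested.

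The hosts fell into classes by the small RNAs that lie inside them in the GENCODE 29 and RefSeq annotations. Of 11 tested hosts that hold only box C/D snoRNAs, 7 rose, 2 fell and 2 did not pass, with a median log2 fold change of 0.57. Of 10 that hold only box H/ACA snoRNAs, 4 rose, 5 fell and 1 did not pass, with a median of -0.43. The 4 that hold only a scaRNA had 2 falls by edgeR, of which that of SNHG21 was lost with DESeq2, and no rise by edgeR, DESeq2, limma-voom or at an unadjusted p under 0.05, and the 3 with both box types had 1 rise and 1 fall. Over all genes tested, 27.5% rose and 27.9% fell. The classes were set after the values had been seen, and their difference was not tested.

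Among the box C/D hosts, SNHG6 had the highest fold change of all members. It had 13.4 and 20.1 CPM with the CELF2 ASO and 5.54 and 5.33 CPM with the control, so both CELF2 ASO libraries were above both controls. SNHG6 rose 3.07-fold (log2 1.62 ± 0.21 SE, edgeR adjusted p = 0.000442). EPB41L4A-AS1 (log2 1.53 ± 0.15 SE) and SNHG32 (log2 1.49 ± 0.14 SE) lay within that standard error, so this rank is not firm. SNHG32, which GENCODE 29 lists as the protein-coding gene C6orf48 and which holds SNORD48 and SNORD52, had 73.3 and 99.1 CPM with the CELF2 ASO, against 30.4 and 31.0 CPM with the control. It rose 2.81-fold (log2 1.49 ± 0.14 SE, edgeR adjusted p = 0.000115), with no overlap of the groups. SNHG29, listed in GENCODE 29 as LRRC75A-AS1 and host to SNORD49A, SNORD49B and SNORD65, had 166 and 215 CPM with the CELF2 ASO and 80.5 and 77.2 CPM with the control. Its log2 fold change was 1.27 ± 0.12 (SE, edgeR adjusted p = 0.000112), and again each CELF2 ASO library was above each control.

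GAS5, at GRCh38 chromosome 1, 173863900 to 173868882, minus strand, holds 10 box C/D snoRNAs in RefSeq, SNORD44 among them, and 1 RefSeq snoRNA with an H/ACA name. Its level was 161 and 217 CPM with the CELF2 ASO, against 83.4 and 77.7 CPM with the control. GAS5 rose 2.34-fold (log2 1.23 ± 0.14 SE, edgeR adjusted p = 0.000276). The lower CELF2 ASO value was well above both controls. SNHG5, which holds SNORD50A and SNORD50B, had 8.76 and 10.4 CPM with the CELF2 ASO and 4.79 and 4.56 CPM with the control, a 2.04-fold rise (edgeR adjusted p = 0.000987). SNHG14 is the imprinted transcript of the Prader-Willi region that runs antisense to UBE3A and holds 84 box C/D snoRNA names. It had 10.4 and 10.3 CPM with the CELF2 ASO and 4.82 and 3.62 CPM with the control, and rose 2.44-fold (edgeR adjusted p = 0.000529). Its annotated exons cover 43324 bases, and its level per kilobase of exon was 0.239 CPM with the CELF2 ASO and 0.0975 CPM with the control.

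SNHG1 and ZFAS1 moved less. SNHG1, which holds 8 box C/D snoRNAs from SNORD22 to SNORD31, had 39.2 and 42.0 CPM with the CELF2 ASO and 29.2 and 28.4 CPM with the control. Its log2 fold change was 0.50 ± 0.09 (SE, edgeR adjusted p = 0.00209), with no overlap between the groups. ZFAS1, which starts antisense to ZNFX1 and holds the SNORD12 family, had 21.2 and 30.0 CPM with the CELF2 ASO and 16.3 and 18.2 CPM with the control. ZFAS1 rose 1.49-fold (log2 0.57 ± 0.17 SE, edgeR adjusted p = 0.0218), a call that was lost without the control library 1 (log2 0.46, adjusted p = 0.0542). Its log2 fold change was 0.29 without CELF2 ASO library 2 and 0.81 without CELF2 ASO library 1. ZNFX1 had 157 and 400 CPM with the CELF2 ASO and 120 and 117 CPM with the control, a difference short of the threshold (edgeR adjusted p = 0.162). The counting strand is not given in the sources used here and ZNFX1 shares 11.1% of the exon bases of ZFAS1, so its part in the ZFAS1 value was not tested.

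SNHG16 and SNHG26 were the 2 box C/D hosts that fell. SNHG16, which holds SNORD1A, SNORD1B and SNORD1C, had 43.8 and 43.9 CPM with the CELF2 ASO and 80.1 and 75.4 CPM with the control. The fall was 1.77-fold (log2 -0.83 ± 0.08 SE, edgeR adjusted p = 8.7e-05), and the libraries within each group lay close together. SNHG26, the host of SNORD93, had 3.17 and 5.27 CPM with the CELF2 ASO and 8.79 and 8.65 CPM with the control. Its log2 fold change of -1.06 (edgeR adjusted p = 0.00573) was -1.48 without CELF2 ASO library 2 and -0.72 without CELF2 ASO library 1. SNHG30 and SNHG19 did not pass. SNHG30 averaged 12.6 ± 0.502 CPM with the CELF2 ASO and 11.1 ± 0.465 CPM with the control, and SNHG19 averaged 12.2 ± 1.40 CPM with the CELF2 ASO and 11.7 ± 1.29 CPM with the control (SD, n = 2 each). The SNHG19 groups overlapped and its sign depended on the setting.

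Among the H/ACA hosts, EPB41L4A-AS1, which holds SNORA13, rose most. It had 17.6 and 18.5 CPM with the CELF2 ASO and 5.47 and 7.03 CPM with the control (log2 1.53 ± 0.15 SE, edgeR adjusted p = 0.000116). EPB41L4A, on the other strand, shares 49.6% of its exon bases but had only 5 and 2 counts with the CELF2 ASO and 5 and 0 with the control. SNHG7, host of SNORA17A and SNORA17B, had 65.9 and 52.3 CPM with the CELF2 ASO and 33.4 and 34.9 CPM with the control (log2 0.79 ± 0.12 SE, edgeR adjusted p = 0.000871). SNHG8, host of SNORA24, had 34.2 and 33.0 CPM with the CELF2 ASO and 20.0 and 21.1 CPM with the control (log2 0.71 ± 0.09 SE, edgeR adjusted p = 0.000495). Neither pair of groups overlapped. SNHG11, host of SNORA60 and SNORA71E, was called higher by a narrow margin, at 6.49 and 5.94 CPM with the CELF2 ASO and 4.61 and 4.26 CPM with the control (log2 0.49 ± 0.16 SE, edgeR adjusted p = 0.0313). That call was lost without control library 1 (adjusted p = 0.142) and without control library 2 (adjusted p = 0.251), with DESeq2 (0.134) and with no filter (0.0762).

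The H/ACA hosts with the highest control CPM fell. SNHG3, which holds SNORA73A and SNORA73B, the U17 snoRNAs that act in cleavage of the ribosomal RNA precursor, had 59.4 and 51.0 CPM with the CELF2 ASO and 115 and 111 CPM with the control. The fall was 2.05-fold (log2 -1.03 ± 0.09 SE, edgeR adjusted p = 7.58e-05). SNHG17, host of the SNORA71 family, had 75.6 and 67.5 CPM with the CELF2 ASO and 117 and 112 CPM with the control, (log2 -0.68 ± 0.08 SE, edgeR adjusted p = 0.00037). In both genes each CELF2 ASO library was below each control. SNHG15, host of SNORA9, fell 1.43-fold (edgeR adjusted p = 0.00805), with 16.1 and 13.6 CPM with the CELF2 ASO and 21.4 and 20.9 CPM with the control.

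SNHG4 and SNHG9 also fell, with wider spread between the CELF2 ASO libraries. SNHG4, which holds SNORA74A, had 12.9 and 7.37 CPM with the CELF2 ASO and 18.9 and 17.7 CPM with the control (log2 -0.84 ± 0.24 SE, edgeR adjusted p = 0.0235). Its log2 fold change was -0.52 without CELF2 ASO library 2 and -1.31 without CELF2 ASO library 1, and the call was lost with library totals alone (adjusted p = 0.0555). SNHG9, host of SNORA78, had 6.13 and 4.35 CPM with the CELF2 ASO and 7.93 and 9.08 CPM with the control (log2 -0.69 ± 0.19 SE, edgeR adjusted p = 0.0174), and lost its call with library totals alone (adjusted p = 0.0518). SNHG31 did not pass, at 1.91 and 1.88 CPM with the CELF2 ASO and 2.57 and 2.22 CPM with the control (edgeR adjusted p = 0.209).

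Of the hosts of scaRNAs, SNHG10, which holds SCARNA13, had 3.89 and 3.85 CPM with the CELF2 ASO and 8.11 and 8.05 CPM with the control. This 2.09-fold fall was the lowest log2 fold change of the members (-1.06 ± 0.15 SE, edgeR adjusted p = 0.000667), with close agreement between the libraries of each group. SNHG26 (-1.06 ± 0.23 SE) and SNHG3 (-1.03 ± 0.09 SE) lay within that standard error, so the rank is not firm. GLRX5, a mitochondrial iron-sulfur cluster gene on the other strand that shares 20.1% of SNHG10's exon bases, also fell (log2 -1.41, edgeR adjusted p = 7.71e-05), and its part in the SNHG10 value was not tested. SNHG21, which holds SCARNA15, had 51 and 50 counts with the CELF2 ASO and 84 and 72 counts with the control, a 1.55-fold fall (edgeR adjusted p = 0.0302). The SNHG21 call was lost when either of the controls was left out, library 1 (adjusted p = 0.0964) or library 2 (0.111), without CELF2 ASO library 1 (0.0678), with DESeq2 (0.128) and with library totals alone (0.0603). FSD2 shares 34.1% of SNHG21's exon bases on the other strand and rose where SNHG21 fell (3.99-fold, edgeR adjusted p = 0.000796). A larger overlap, 72.9% on the same strand, is with ENSG00000252690, which was not among the genes counted, so its part was not tested. SNHG22 and SNHG20 did not pass (edgeR adjusted p = 0.359 and 0.935).

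The hosts with both box types were mixed outside GAS5. SNHG12, which holds SNORA16A, SNORA44, SNORA61 and SNORD99, had 15.3 and 12.9 CPM with the CELF2 ASO and 19.7 and 20.9 CPM with the control. It fell 1.44-fold (log2 -0.53 ± 0.12 SE, edgeR adjusted p = 0.00781). SNHG25 averaged 4.48 ± 0.652 CPM with the CELF2 ASO and 3.78 ± 0.162 CPM with the control (SD, n = 2 each) and did not pass (edgeR adjusted p = 0.278). The members left out of the test were near 0. SNHG18 was listed at 0 in all 4 libraries, SNHG28 had 0 and 0 counts with the CELF2 ASO and 2 and 0 with the control, and SNHG27 had 16 and 5 counts with the CELF2 ASO and 9 and 6 with the control.

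**Figure D2:**
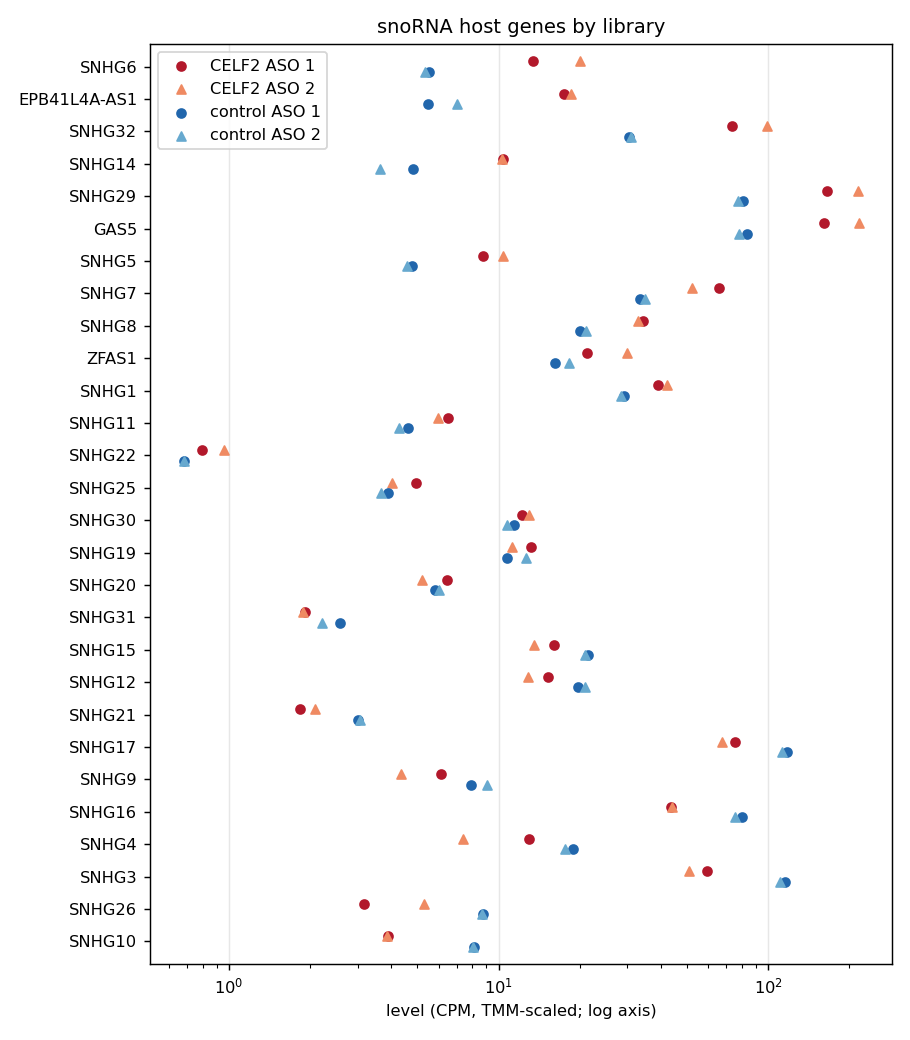
Level of each tested host gene in each library (CPM on a log axis, CELF2 ASO libraries above the control libraries in each row), ordered by fold change. SNHG29 and GAS5 reach 215 and 217 CPM in CELF2 ASO library 2, and among the hosts that fell SNHG17 and SNHG3 have the highest control levels, at 112 to 117 and 111 to 115 CPM.

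Per kilobase of annotated exon, the order of the hosts differed between the groups. With the CELF2 ASO, GAS5 (52.0 CPM per kilobase), SNHG29 (50.7) and SNHG32 (47.9) had the highest levels, followed by SNHG8 (36.4) and SNHG19 (35.6). With the control, SNHG19 (34.2), SNHG3 (27.6), SNHG17 (27.4), SNHG8 (22.3) and GAS5 (22.2) led. Levels per kilobase overlapped by library between GAS5, SNHG29 and SNHG32 and between SNHG8 and SNHG19 with the CELF2 ASO, and between SNHG3 and SNHG17 and between SNHG8 and GAS5 with the control, so these orders do not exceed the spread. SNHG3 was the second in the control order and the ninth with the CELF2 ASO, at 13.5 CPM per kilobase. By CELF2 ASO library, SNHG3 (14.5 and 12.5) overlapped SNHG7 (15.2 and 12.0) and SNHG6 (10.7 and 16.1), so the ninth place does not exceed the spread. Exon lengths are from GENCODE 29, which may not be the annotation that was counted.

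The CELF2 ASO libraries differed from each other by a median of 1.18-fold over the 28 tested hosts, against 1.05-fold between the control libraries. SNHG4 differed most, 1.76-fold, and was lower in CELF2 ASO library 2. SNHG26, SNHG6, ZFAS1, SNHG32, GAS5 and SNHG29 were higher in that library than in CELF2 ASO library 1, by 1.66, 1.51, 1.41, 1.35, 1.34 and 1.30 times. SNHG9 and SNHG7 went the other way, with ratios of library 2 to library 1 of 0.710 and 0.793. Other hosts were lower in library 2 by less, SNHG20 (0.804) and SNHG25 (0.813) among them. For all 22 hosts that were called, both CELF2 ASO libraries were on the same side of both control libraries. A call made from the same libraries favours such separation, so it is no separate support for the calls. Over all genes tested, called or not, 79.6% had separate groups.

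**Figure D3:**
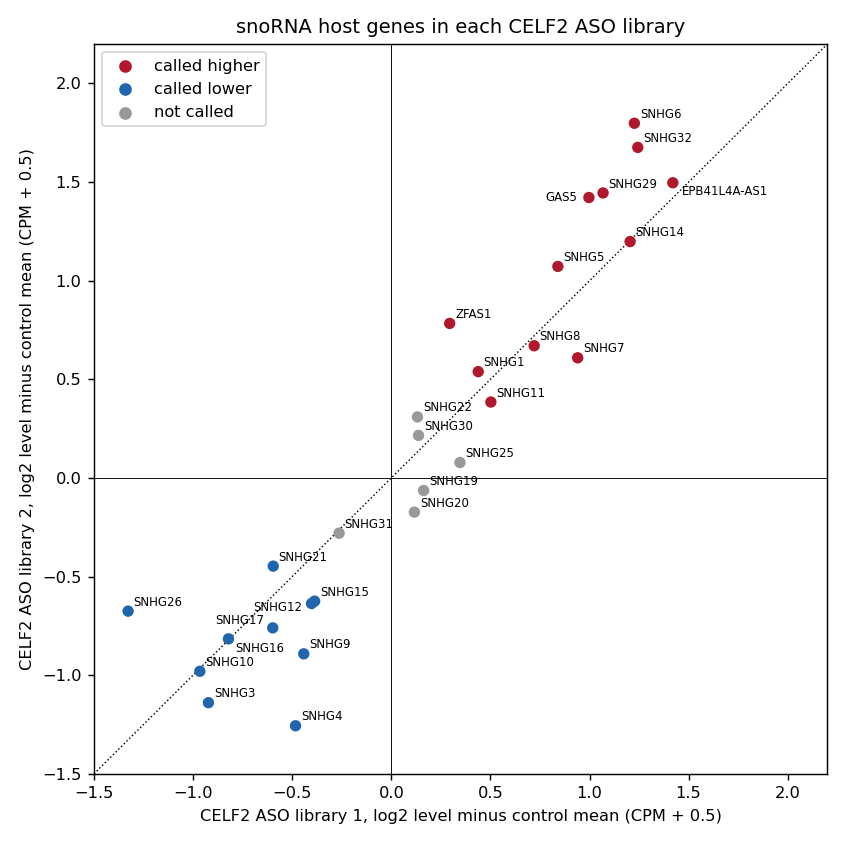
Log2 level of each tested host gene in CELF2 ASO library 1 (horizontal) and library 2 (vertical), each minus the mean of the control libraries, with 0.5 CPM added; the dotted line marks equal values. The 12 hosts called higher lie above 0 and the 10 called lower lie below 0 on both axes. SNHG4, SNHG26, SNHG6 and ZFAS1 stand farthest from the line.

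The snoRNAs themselves were mostly not counted. Of 143 annotated snoRNA and scaRNA genes that lie inside the hosts on the same strand in GENCODE 29, 114 were listed at 0 in all 4 libraries, 25 had too few counts to test and 4 were tested. Of those at 0, 45 lie wholly within an annotated exon of their host and 64 lie outside any. No inside gene that shares bases with an exon of its host had a count. The handling of shared reads is not stated, so a 0 within a host exon may not measure the RNA, which was not tested. Otherwise a count of 0 allows up to 3 counts per library, and this limit covers counting error only. In 23 of the 29 hosts with such a gene, SNHG1, SNHG29 and SNHG32 among them, all were listed at 0. The snoRNAs of GAS5 lie inside it in RefSeq alone and were not analysed here. Where reads of an intron were counted to the host exons, the host value would hold them, and this was not tested.

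The 4 tested RNAs are H/ACA RNAs from hosts that fell. SNORA73B (ENSG00000200087, GRCh38 chr1:28508559-28508762, plus strand, 204 bases) lies in an intron of SNHG3 and had the most reads. It is shown from its GENCODE 29 transcript, since its counts could be set beside those of its host, with the last ACA, the box near the 3′ end that gives the class its name, in capitals.
SNORA73B: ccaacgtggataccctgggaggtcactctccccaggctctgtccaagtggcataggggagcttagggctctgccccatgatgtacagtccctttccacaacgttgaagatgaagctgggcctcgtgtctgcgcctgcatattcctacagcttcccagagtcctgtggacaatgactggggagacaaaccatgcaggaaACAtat

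SNORA73B had 222 and 324 CPM with the CELF2 ASO and 431 and 373 CPM with the control, with no overlap of the groups. It missed the threshold narrowly (log2 -0.56 ± 0.19 SE, edgeR adjusted p = 0.051) and passed it in 9 of 11 alternatives, with a log2 fold change from -0.88 without CELF2 ASO library 2 to -0.31 without CELF2 ASO library 1. SNORA74A, in an intron of SNHG4, had 14 and 9 counts with the CELF2 ASO and 65 and 45 with the control, and fell 4.75-fold (edgeR adjusted p = 0.000581). SNORA74D, also inside SNHG4, had 51 and 35 counts with the CELF2 ASO and 98 and 52 with the control (log2 -0.79, edgeR adjusted p = 0.0441). That call was lost without control library 1 (log2 -0.45, adjusted p = 0.337), with DESeq2 (0.0899), limma-voom (0.0584), the 1 CPM filter (0.0569) and library totals alone (0.0878). SNORA71B, inside SNHG17, had 37 and 40 counts with the CELF2 ASO and 54 and 54 with the control and did not pass (log2 -0.49, edgeR adjusted p = 0.122). These families have near-identical copies elsewhere in the genome, so single members are uncertain.

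**Figure D4:**
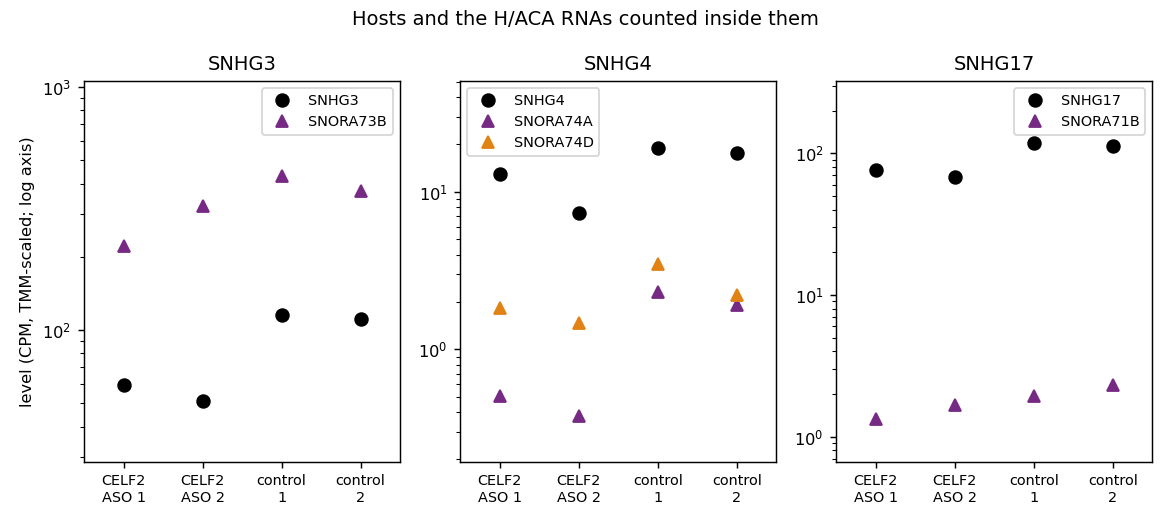
Level (CPM, log axis) of 3 hosts (circles) and of the H/ACA RNAs counted inside them (triangles) in each library, CELF2 ASO libraries at the left. SNORA73B is above its host SNHG3 in every library, at 222 to 431 CPM, and SNORA74A is below 1 CPM in both CELF2 ASO libraries.

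Several hosts share a start region with a gene on the other strand. Of 11 such partners whose start lies within 1000 bases of that of a host, 9 were tested; 2 rose, 3 fell and 4 did not pass, beside 55.5% called among all genes. SLC3A2, the heavy chain of cell-surface amino acid transporters, starts 188 bases upstream of SNHG1 and had 639 and 627 CPM with the CELF2 ASO and 372 and 373 CPM with the control (log2 0.77, edgeR adjusted p = 8.85e-05). ZBTB37, which starts 800 bases inside GAS5, rose 1.86-fold (edgeR adjusted p = 0.000287). Both partners moved in the direction of their host. RPS2, a small-subunit ribosomal protein gene that starts 99 bases upstream of SNHG9, fell by 0.35 on the log2 scale (edgeR adjusted p = 0.0127), which was lost without control library 1 (adjusted p = 0.0759), without control library 2 (0.0861) and with library totals alone (0.0911). TRAF7, beside SNHG19, and ACAA2, beside SNHG22, fell by 0.34 and 0.39 on the log2 scale (edgeR adjusted p = 0.005 and 0.00861), while their hosts did not pass. The TRAF7 call was lost without control library 1 (adjusted p = 0.0831) and the ACAA2 call with library totals alone (0.0695). BARD1, beside SNHG31, had 30.8 and 39.6 CPM with the CELF2 ASO and 43.1 and 39.5 CPM with the control (edgeR adjusted p = 0.153). It passed without CELF2 ASO library 2 (3.49e-08) and with no filter (0.021). Its groups overlapped. SEMA5A, beside SNHG18, had 1.30 and 0.293 CPM with the CELF2 ASO and 0.822 and 0.767 CPM with the control, and ENSG00000272668, beside SNHG28, had under 1 CPM in every library; neither passed. ZNFX1, the partner of ZFAS1, is given above (log2 1.23, edgeR adjusted p = 0.162) and passed with limma-voom (0.0464) and without either CELF2 ASO library, at a log2 fold change of 1.76 without library 1 and 0.39 without library 2.

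Other genes share exon bases with hosts. RCC1, which shares 5.92% of SNHG3's exon bases on the same strand, fell 2.85-fold, at 3071 and 2516 counts with the CELF2 ASO and 8796 and 7094 with the control (log2 -1.51, edgeR adjusted p = 8.58e-06), and its part in the SNHG3 value was not tested. DIPK1B, which shares 25.2% of SNHG7's exon bases on the other strand, fell (log2 -0.85, edgeR adjusted p = 0.00452) where SNHG7 rose. ENSG00000285565, which shares 23.2% of SNHG32's exon bases on the same strand, was not among the genes counted, so its part was not tested. MCMDC2, which shares 29.3% of SNHG6's exon bases, had at most 3 counts in any library. MATR3 (ENSG00000280987), which shares 14% of SNHG4's exon bases on the same strand, had at most 6 counts in any library. ENSG00000284526, which shares 30.6% of SNHG16's exon bases on the other strand, had at most 9 counts in any library. MYO5B, which shares 8.83% of SNHG22's exon bases on the other strand, fell 2.09-fold (edgeR adjusted p = 0.00288). The parts of these genes in the host values were not tested.

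Start regions were available for 27 hosts. The pyrimidine tract marked in the sequences above was found in 16 of the 27 (59.3%), against 33.5% of 35116 RefSeq start regions. It was present in 8 of 11 hosts that rose, 5 of 8 that fell, 2 of 5 that did not pass and 1 of 3 not tested. With the tract required to begin exactly at the annotated start, it was found in 7 of the 27 (25.9%), against 4.07% of all start regions. SNHG32, SNHG5 and ZFAS1 among the hosts that rose, and SNHG12 and SNHG4 among those that fell, had it there. The starts are those of RefSeq, and several lie away from the GENCODE 29 start, that of SNHG14 by 154975 bases, SNHG12 by 1259, ZFAS1 by 464, SNHG32 by 308 and GAS5 by 163, so the presence of a tract depends on the annotation. The E-box CACGTG, searched on both strands from 250 bases before to 50 after the start, was in 2 of 27 hosts (7.41%), SNHG7 and SNHG30, against 7.26% of all. TGATGNAA, a form of the element bound by ATF4 and C/EBP factors, was in none of the 27 windows, on either strand, and in 3.62% of all.

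Genes that act with the hosts were described from 4 lists. The lists share genes, so their counts are not separate. NOP56 and DKC1 are in both the snoRNP and the protein-coding host lists, and TPT1 is in both the protein-coding host and TOP lists. Of 25 tested snoRNP proteins and assembly factors, 21 fell and none rose, with a median log2 fold change of -0.72. The share called was 84%, against 55.5% of all genes tested and 63.3% of the protein-coding genes tested. No member passed upward by edgeR, 0 did at an unadjusted p under 0.05, with DESeq2 or with limma-voom, and 1 did with library totals alone and 1 without CELF2 ASO library 1. FBL, the methyltransferase of box C/D complexes, had 207 CPM on average with the CELF2 ASO and 446 CPM with the control (log2 -1.11 ± 0.07 SE, edgeR adjusted p = 1.95e-05). RUVBL2, an ATPase of snoRNP assembly, fell 3.13-fold and TCOF1, a nucleolar factor of ribosomal RNA transcription, fell 2.23-fold (edgeR adjusted p = 1.25e-05 and 1.86e-05).

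Protein-coding genes that host snoRNAs moved both ways, as the noncoding hosts did. Of 50 tested, 20 rose, 17 fell and 13 did not pass, with a median of 0.04. The share called was 74%, beside 55.5% of all genes tested and 63.3% of the protein-coding genes tested. RPL3, a large-subunit ribosomal protein gene, rose 1.75-fold (edgeR adjusted p = 0.000188). TPT1 rose 2.07-fold (edgeR adjusted p = 0.000304) and the helicase gene EIF4A2 rose 1.68-fold (edgeR adjusted p = 0.000173). TBRG4, the translation factor gene EIF4G2 and the spliceosomal gene SNRPB fell 2.68-fold, 2.53-fold and 2.50-fold (edgeR adjusted p = 9.1e-06, 1.08e-05 and 2.32e-05).

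Of 21 tested TOP mRNAs outside the ribosomal proteins, 10 rose and 4 fell, with a median of 0.20. The share called, 66.7%, was near the 63.3% of protein-coding genes tested, and was 55.5% over all genes tested. Without control library 1 or without control library 2, 6 rose, and without CELF2 ASO library 2, 8 fell. The elongation factor gene EEF1A1 averaged 23514 CPM with the CELF2 ASO and 12475 CPM with the control (log2 0.91 ± 0.10 SE, edgeR adjusted p = 0.000211), and NAP1L1, a histone chaperone gene, rose 1.71-fold (edgeR adjusted p = 0.000117). NPM1, a nucleolar chaperone gene, fell by 1.14 on the log2 scale, VIM by 0.94 and the importin gene IPO5 by 0.74 (edgeR adjusted p = 1.84e-05, 8.02e-05 and 0.000256). EEF1G was listed at 0 and was not tested.

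Of 24 tested nonsense-mediated decay factors, 5 rose and 9 fell, with a median of 0.01. The share called, 58.3%, was near the 55.5% of all genes tested and the 63.3% of the protein-coding genes tested. With DESeq2, with no filter, or without either control library, 3 rose, and without CELF2 ASO library 1, 8 rose. DHX34 fell 2.59-fold, the release factor gene GSPT1 1.73-fold and the exon junction gene EIF4A3 1.63-fold (edgeR adjusted p = 1.2e-05, 0.000107 and 0.000134). UPF3B rose 1.57-fold (edgeR adjusted p = 0.00122), the decapping enzyme gene DCP2 1.40-fold (0.00541) and the exonuclease gene XRN1 3.11-fold (0.00926). XRN1 differed between the CELF2 ASO libraries, at 123 and 207 CPM, against 51.8 and 54.3 CPM with the control. The XRN1 call was lost with no filter (adjusted p = 0.129).

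**Figure D5:**
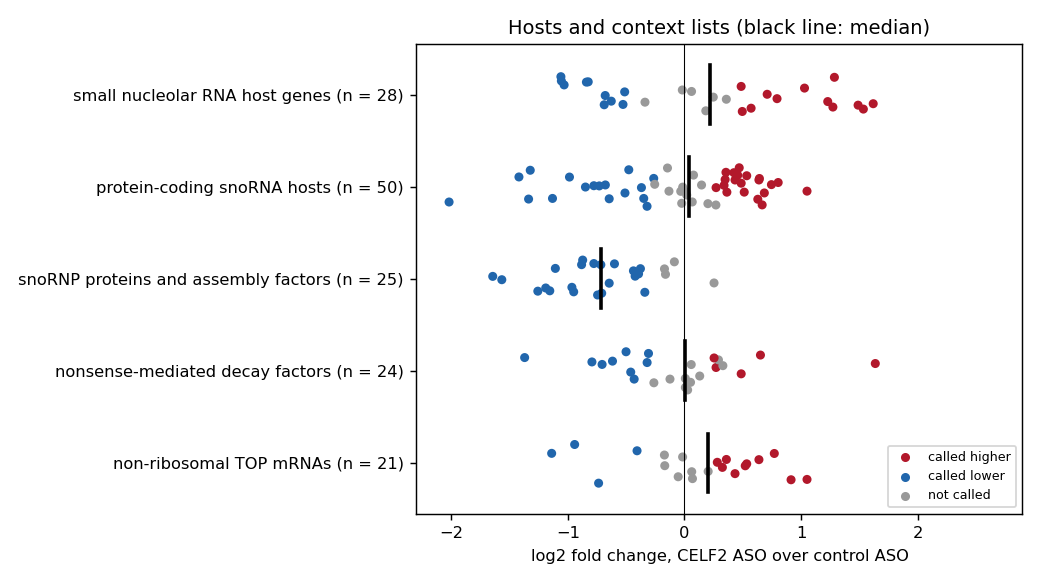
Log2 fold change (CELF2 ASO over control ASO) of each tested gene in the hosts and in 4 context lists, coloured by call; the black line is the median of the list. The snoRNP list has its median at -0.72 with 21 of 25 genes called lower, while the hosts lie on both sides of 0.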

How the data were processed

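The deposited values are whole-number read counts per Ensembl gene, with no normalization by the authors. The submitters' processing notes name STAR 2.7.11b, featureCounts 2.0.8 (with Subread), Salmon 1.10.0, bcl2fastq and the GRCh38 build. Which annotation was counted, on which strand, and how shared reads were handled was not stated there. The table held 79029 rows, and 97 rows that are not Ensembl genes, ERCC spike-ins among them, with 1 to 3 counts per library were left out. A name table gave symbols for 61481 IDs, and positions came from GENCODE 29 on GRCh38, which held 57356.

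The analysis used edgeR 4.0.16 under R 4.3.3. Low genes were removed by filterByExpr (minimum count 10, minimum total 15). Libraries were scaled by TMM, and groups were compared by the two-sided robust quasi-likelihood test with no covariate and Benjamini-Hochberg adjustment over all genes. Standard errors are the absolute log2 fold change over the square root of F. Alternatives were RLE scaling, library totals, no filter, 1 CPM in 2 libraries, DESeq2 1.42.0, limma-voom 3.58.1, a block on the label's number, and each library left out. The fit was tested on simulated counts.

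The members and lists were chosen with earlier results of these data known. Named genes were all members, CELF2, inside snoRNAs that were tested, tested divergent partners, and of each list the 3 smallest p-values in each direction. Genes named because they share at least 5% of a host's exon bases, and the classes by box type, were added after the values had been seen. Not every such gene is named. The sequence of SNORA74A is not reported here.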

Additional observations from a re-analysis of the deposited data

How the results depend on the processing

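Of the 22 hosts called, 17 kept call and direction in all 11 alternatives run, and SNHG4, SNHG9, SNHG11, SNHG21 and ZFAS1 lost the call in at least 1; none of the 22 changed direction. With library totals alone the median of all genes moved by 0.12 on the log2 scale, and 19 of the 22 calls held. Fits without a library take their spread from fewer libraries. Among hosts not called, SNHG20 changed sign with the 1 CPM filter (0.033) and library totals (0.10) and ran from -0.18 to 0.11 with a library left out, and SNHG19 ran from -0.080 to 0.16. SEMA5A was -0.011 with DESeq2, -0.29 with limma-voom, -0.013 with no filter and -0.027 with the replicate block, and ran from -1.42 to 0.68 with a library left out. Divergent partners called numbered 3 (1 lower) with library totals and 3 to 7 (1 to 4 lower) with a library left out. Inside snoRNAs called, all lower, numbered 1 with library totals and 1 with the 1 CPM filter. snoRNP factors called higher numbered 1 with library totals and 0 to 1 with a library left out. Decay factors called higher numbered 3 with DESeq2, 3 with no filter and 3 to 8 with a library left out. With a library left out, TOP mRNAs higher ran from 6 to 12 and lower from 4 to 8, and protein-coding hosts higher from 12 to 24. Start tracts numbered 7 when placed exactly at the start. The causes were not tested. Same-numbered libraries did not deviate together (r = 0.05 across 19511 genes), and with the replicate block 10809 genes were called, against 10823, and all 22 host calls held; of the other genes named, SNORA73B passed (adjusted p = 0.0418). With 2 libraries a group, hosts that did not pass may still differ.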
